A study of Ambystoma mexicanum with 15 samples.

Results

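Leptin, the product of the gene LEP, was followed across axolotl (Ambystoma mexicanum) spinal cord without injury, after injury, and after injury with ivermectin. LEP was represented by every probe set, a group of array probes read as 1 value, that the platform annotation names LEP. There was 1 such probe set, axo03422-f_at, among 20035 probe sets that are not Affymetrix controls, of which 10951 carried a gene symbol and together covered 8639 genes. LEP was chosen by its level on these same arrays (its log2 values over the 5 groups), so its levels and differences are given as a description with no test.

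Leptin is a helical cytokine that, in mammals, fat cells secrete in proportion to fat stores and that acts on the hypothalamus to limit feeding. It binds the receptor LEPR, a relative of the shared interleukin-6 receptor chain IL6ST, which activates the kinase JAK2 and the transcription factor STAT3, and it is held back by feedback inhibitors such as SOCS3 and the phosphatase PTPN1. In zebrafish the leptin gene lepb is induced in regenerating fin and heart, and in Xenopus tadpoles leptin stimulates limb growth.

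Total RNA was measured on 15 custom Affymetrix arrays in 5 groups of 3, each array holding tissue pooled from 10 animals. The groups were ivermectin with sampling 1 day after injury, uninjured cord, and cord 1, 3 and 7 days after injury. All groups were white axolotls with a labelled age of 1 month and no labelled genetic change, and only the uninjured tissue was described as mature. Ivermectin, a drug that opens ligand-gated chloride channels, was pressure-injected into the central canal with the dye Fast Green just before a piece of the cord was cut out. The protocol names a water vehicle, but the labels do not say whether the 1 day arrays without ivermectin received it, nor how much tissue around the cord was taken. The arrays are of bulk tissue, in which fewer cells of a type and less RNA per cell cannot be told apart.

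Values are log2 expression per probe set as the authors normalised it (RMA), so a difference of 1 is a 2-fold change. Array medians lay between 5.80 and 5.89 and the lower quartiles of the arrays between 4.21 and 4.28. No detection call was used, so a level near the lower quartile was not shown to be above background. Of the neuron and glia markers, 14 of 21 had a named probe set, GFAP, VIM, MBP and STMN2 among them, and their mean level was 8.20 to 8.23 on ivermectin arrays, 7.96 to 8.02 on uninjured arrays, 8.51 to 8.52 at 1 day, 8.51 to 8.53 at 3 days and 8.64 to 8.69 at 7 days. SNAP25, SOX2 and OLIG2 had no named probe set. The mean levels of the muscle and epidermal marker lists were also well above the array medians in every group. Single members were not, such as LAMA3 (3.40 at 1 day, 3.42 at 3 days) and RYR1 (4.88 and 5.04). Dim members of the neuron and glia list were SYT1 (3.27 and 3.30 at the same times), ELAVL4 (4.24 and 4.06) and SYP (4.60 and 4.65).

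LEP was high at 1 day, at an intermediate level in uninjured and ivermectin tissue, and near the lower quartile of the array at 3 and 7 days. On the ivermectin arrays LEP read 6.46, 6.48 and 6.70. On the uninjured arrays it read 7.36, 7.41 and 7.44. At 1 day after injury it read 8.33, 8.37 and 8.34. All 3 arrays at 1 day thus lay above every uninjured array, and all 3 ivermectin arrays lay below every uninjured array. At 3 days LEP read 4.16, 4.14 and 4.13. At 7 days it read 4.51, 4.55 and 4.39. No 2 of the 5 groups overlapped, and the smallest gap between neighbouring groups in the order was 0.229, between 7 and 3 days.

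**Figure D1:**
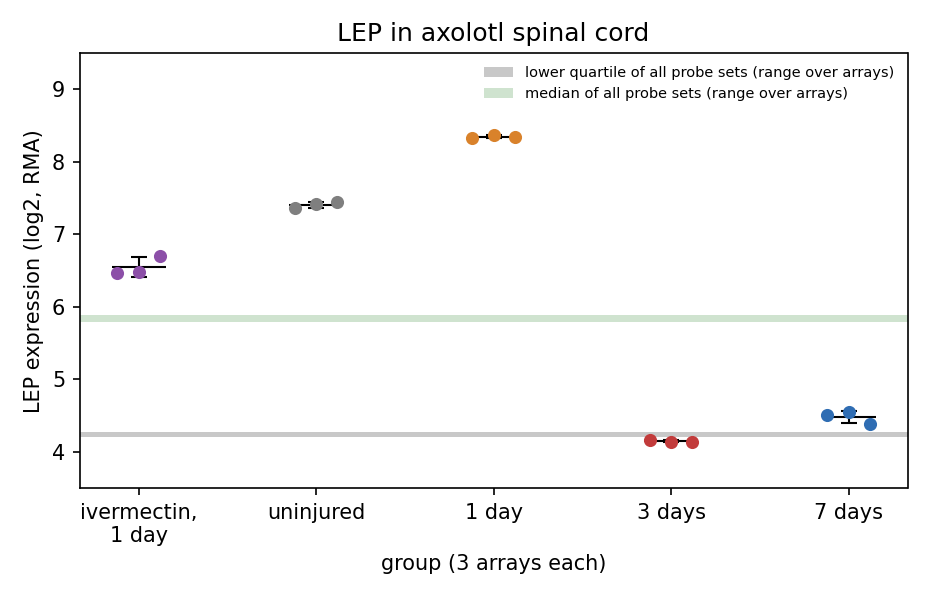
LEP expression (log2, RMA; vertical axis) on each of 15 arrays (points) by group (horizontal axis), with the group mean and SD (bars, n = 3 arrays) and the range over arrays of the lower quartile and median of all probe sets (bands). The 1 day arrays sit between 8.33 and 8.37, above all others, and the 3 day arrays between 4.13 and 4.16, below the lower quartile band.

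As group means, LEP was 6.55 ± 0.136 in ivermectin tissue, 7.41 ± 0.0388 in uninjured tissue, 8.35 ± 0.0188 at 1 day, 4.14 ± 0.0138 at 3 days and 4.48 ± 0.0849 at 7 days (SD, n = 3 each). The order from high to low was 1 day, uninjured, ivermectin, 7 days and 3 days, and each neighbouring pair in it was apart by more than the larger SD of the pair. The position of LEP within the array moved in the same order. On the 1 day arrays 79.0% to 79.3% of probe sets were lower than LEP, on the uninjured arrays 68.3% to 68.8%, on the ivermectin arrays 57.1% to 60.0%, on the 7 day arrays 28.2% to 31.6% and on the 3 day arrays 22.1% to 22.6%. The 3 day readings lay below the lower quartile of their own arrays, so LEP may have been at background there and the size of differences from 3 days is not exact. The same caution applies to the 7 day readings, which lay just above that quartile.

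Between 1 day and uninjured tissue LEP differed by 0.94 ± 0.06 (SE from the limma fit, n = 3 arrays per group), which is 1.92-fold higher at 1 day. By this difference LEP was 311th from the top of 8639 genes. At 3 days it was 3.26 lower than in uninjured tissue on the log2 scale (difference -3.26), or 9.58-fold, which placed it 8th from the bottom. Just beyond it were PHLDA2, an imprinted growth regulator, at -3.32 and KERA, the corneal and connective tissue proteoglycan keratocan, at -3.30. Just short of it were GFPT2, an enzyme of hexosamine synthesis, at -3.23 and AQP3, a water and glycerol channel of epithelia, at -3.20. At 7 days the difference from uninjured tissue was -2.92, or 7.58-fold, which was 15th from the bottom.

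Between 3 days and 1 day the LEP difference was -4.20, or 18.4-fold. Only 2 genes had a lower value in that comparison, FOS at -5.06 and AREG, an epidermal growth factor receptor ligand, at -4.22. SLC2A1, the glucose transporter GLUT1, followed at -4.16 and RHBDL2, a rhomboid protease, at -4.11. Between 7 and 3 days LEP differed by 0.34, or 1.26-fold, and ranked 1181st from the top. The range of the 5 group means was 4.20, the 11th widest of 8639 genes, beside a median range of 0.457. The spread within groups was ordinary: the pooled SD of LEP was 0.0744, beside a median of 0.0864 over genes, and 37.8% of genes had a smaller SD.

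With ivermectin, LEP at 1 day after injury was 1.80 below the 1 day arrays without the drug on the log2 scale (ivermectin minus 1 day, -1.80), or 3.48-fold lower, 71st from the bottom of 8639 genes. Against uninjured tissue the ivermectin arrays were also lower, by 1.81-fold (difference -0.86), and LEP was 15th from the bottom in that comparison. The comparisons share the 1 day and the uninjured arrays and are therefore not independent of each other. Re-scaled by cyclic loess, the group means of LEP were 6.55 in ivermectin tissue, 7.41 in uninjured tissue, 8.40 at 1 day, 4.18 at 3 days and 4.47 at 7 days, and with each array centred on its median they were 6.51, 7.38, 8.36, 4.19 and 4.49 in the same order of groups.

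Many genes moved in these comparisons, which sets the scale for the counts of listed genes that follow. A gene is called changed at a limma adjusted p under 0.05 (Benjamini-Hochberg over all 20035 probe sets, 1 probe set per gene). By that rule 55.6% of the 8639 genes were called at 1 day against uninjured tissue, 61.9% at 3 days, 60.3% at 7 days and 57.5% in ivermectin against 1 day. In ivermectin against uninjured tissue 7.39% were called, at 3 days against 1 day 42.5%, and at 7 days against 3 days 42.4%. Among the calls in ivermectin against 1 day 30.9% of all genes were higher and 26.6% lower, and in ivermectin against uninjured tissue 3.06% were higher and 4.33% lower. Against uninjured tissue 25.8% were higher and 29.8% lower at 1 day, 29.4% and 32.5% at 3 days, and 31.1% and 29.2% at 7 days. At 3 days against 1 day 22.2% were higher and 20.2% lower, and at 7 days against 3 days 25.6% were higher and 16.8% lower. With a log2 difference of at least 1 required too, 5.83% of genes were called at 1 day, 9.58% at 3 days and 9.79% at 7 days against uninjured tissue, 6.59% in ivermectin against 1 day, 0.127% in ivermectin against uninjured tissue, 3.53% at 3 days against 1 day and 1.19% at 7 days against 3 days. A share of listed genes near these values says nothing particular about the list. The median difference over all genes was at most 0.02 in size.

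The leptin receptor itself, LEPR, had no probe set with its name, so the receptor's own level could not be read here. Probe sets without a gene symbol were not searched for it. Of 15 genes listed for the leptin receptor class, 5 had a named probe set. Against uninjured tissue 1 rose and none fell at 1 day, 1 rose and 1 fell at 3 days, and 1 rose and 2 fell at 7 days. Of all genes 25.8%, 29.4% and 31.1% were called higher at these times, and 29.8%, 32.5% and 29.2% lower. None of the 5 was called in ivermectin against 1 day, where 57.5% of all genes were called. In that comparison GHR, PRLR and IL6ST differed by -0.17, -0.14 and -0.18. The IL6ST difference was called with median centring or array weights (-0.23 each) and without the ivermectin array of replicate 1 (-0.26). IL6ST, the signalling chain for interleukin-6 and related cytokines, was otherwise not called in any comparison, with group means of 5.17 in ivermectin tissue, 5.29 in uninjured tissue, 5.35 at 1 day, 5.43 at 3 days and 5.35 at 7 days. GHR, the growth hormone receptor, rose by 0.54 ± 0.11 at 3 days (limma adjusted p 0.000732), and PRLR, the prolactin receptor, fell by 0.82 ± 0.16 (limma adjusted p 0.000355). GHR lay near the lower quartile in every group, with means of 4.16 to 4.70. Of 15 helical cytokines related to leptin only PRL, prolactin, had a named probe set, and it was not called in any comparison.

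LEPROT, which in humans shares the promoter of the receptor gene and limits how much receptor reaches the cell surface, rose with time after injury. It read 8.62, 8.43 and 8.60 on ivermectin arrays and 8.60, 8.57 and 8.61 on uninjured arrays. At 1 day it read 8.65, 8.77 and 8.82, at 3 days 8.97, 8.90 and 8.94, and at 7 days 9.25, 9.44 and 9.29. The arrays at 1, 3 and 7 days all lay above every uninjured array. LEP was at its highest at 1 day and at its lowest at 3 and 7 days. LEPROT differed from uninjured tissue by 0.15 at 1 day (limma adjusted p 0.06, not called, although it was called after cyclic loess at 0.23, with median centring at 0.19, with array weights at 0.18, with an intensity trend or with dim probe sets left out at 0.15, and without the 1 day array of replicate 1 at 0.20), by 0.34 ± 0.06 at 3 days (limma adjusted p 0.000311) and by 0.73 ± 0.06 at 7 days (limma adjusted p 1.18e-07). With ivermectin it was lower than at 1 day, by a difference of -0.20 (limma adjusted p 0.0167), a call that was lost without the 1 day array of replicate 3 (-0.16) or without the ivermectin array of replicate 2 (-0.14).

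The list of receptor-proximal and JAK-STAT signalling genes had 18 of 26 members measured. At 1 day 5 rose and 4 fell against uninjured tissue, at 3 days 6 rose and 4 fell, and at 7 days 7 rose and 5 fell. In ivermectin against 1 day 3 rose and 7 fell, and in ivermectin against uninjured tissue 1 rose and 1 fell. Of all genes 25.8%, 29.4% and 31.1% were called higher at 1, 3 and 7 days, and 29.8%, 32.5% and 29.2% lower. In ivermectin against 1 day 30.9% of all genes were called higher and 26.6% lower. In ivermectin against uninjured tissue the shares were 3.06% and 4.33%. The called share was at or near the share over all genes in each of the injury comparisons, and the median difference of the list lay between 0.01 and 0.10. Members moved in both directions, and a few moved far.

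JAK2, the kinase bound to the receptor, was not called in any comparison. Its group means were 4.51 in ivermectin tissue, 4.33 in uninjured tissue, 4.41 at 1 day, 4.36 at 3 days and 4.30 at 7 days, close to the lower quartile of the arrays, so a change in its level could have been missed. STAT3, read from 1 of its 4 probe sets, fell after injury. It read 5.57, 5.96 and 5.90 on ivermectin arrays, 5.71, 5.83 and 6.09 on uninjured arrays, 5.38, 5.29 and 5.27 at 1 day, 5.11, 5.12 and 4.97 at 3 days, and 5.59, 5.32 and 5.40 at 7 days. Every injured array without the drug was below every uninjured array. The fall was 0.57 ± 0.11 at 1 day (difference -0.57, limma adjusted p 0.000344), 0.81 at 3 days (difference -0.81, limma adjusted p 9.07e-06) and 0.44 at 7 days (difference -0.44, limma adjusted p 0.00234). With ivermectin STAT3 was 0.50 higher than at 1 day (limma adjusted p 0.000963) and differed from uninjured tissue by -0.07 (limma adjusted p 0.812). At 1 day LEP was higher than in uninjured tissue and STAT3 lower, and in ivermectin against 1 day the signs were the other way round. At 3 and 7 days both LEP and STAT3 were lower than in uninjured tissue.

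FOXO1, a transcription factor that insulin and leptin signalling through AKT keeps out of the nucleus, had the largest fall in the list at 3 days. It read 6.92, 6.81 and 6.69 on ivermectin arrays, 7.11, 7.28 and 7.37 on uninjured arrays, 7.43, 7.39 and 7.45 at 1 day, 5.42, 5.15 and 5.36 at 3 days, and 5.83, 5.31 and 5.45 at 7 days. The 3 and 7 day arrays lay far below all others, and the 1 day arrays just above the uninjured ones. Its difference from uninjured tissue was 0.17 at 1 day (limma adjusted p 0.227, not called), -1.94 ± 0.11 at 3 days (limma adjusted p 9.03e-10) and -1.72 at 7 days (limma adjusted p 3.75e-09). It fell by 0.61 in ivermectin against 1 day (limma adjusted p 0.000271) and by 0.44 against uninjured tissue (limma adjusted p 0.0279). The direction of FOXO1 was that of LEP in each comparison where it was called.

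PIK3R1, the regulatory subunit of phosphoinositide 3-kinase, and AKT1 rose at all times. RPS6KB1, the S6 kinase downstream of mTOR, read from 1 of its 3 probe sets, fell. PIK3R1 read 7.13, 7.11 and 7.38 on ivermectin arrays, 7.34, 7.47 and 7.34 on uninjured arrays, 7.98, 8.13 and 7.98 at 1 day, 8.26, 8.33 and 8.25 at 3 days, and 8.22, 8.21 and 8.16 at 7 days. Each injured group without the drug thus lay clear above the uninjured arrays, by 0.65 at 1 day, 0.90 ± 0.07 at 3 days (limma adjusted p 2.59e-08) and 0.81 at 7 days. PIK3R1 fell by 0.83 in ivermectin against 1 day (limma adjusted p 8.37e-08). RPS6KB1 was 1.37 lower at 1 day (difference -1.37, limma adjusted p 2.37e-08), 1.26 lower at 3 days (difference -1.26, limma adjusted p 4.08e-08) and 1.47 lower at 7 days (difference -1.47, limma adjusted p 6.77e-09), and 1.39 ± 0.10 higher in ivermectin than at 1 day (limma adjusted p 1.71e-08). Neither gene was called in ivermectin against uninjured tissue, at -0.18 for PIK3R1 and 0.03 for RPS6KB1. Unlike LEP, both kept 1 direction against uninjured tissue at all 3 times.

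**Figure D2:**
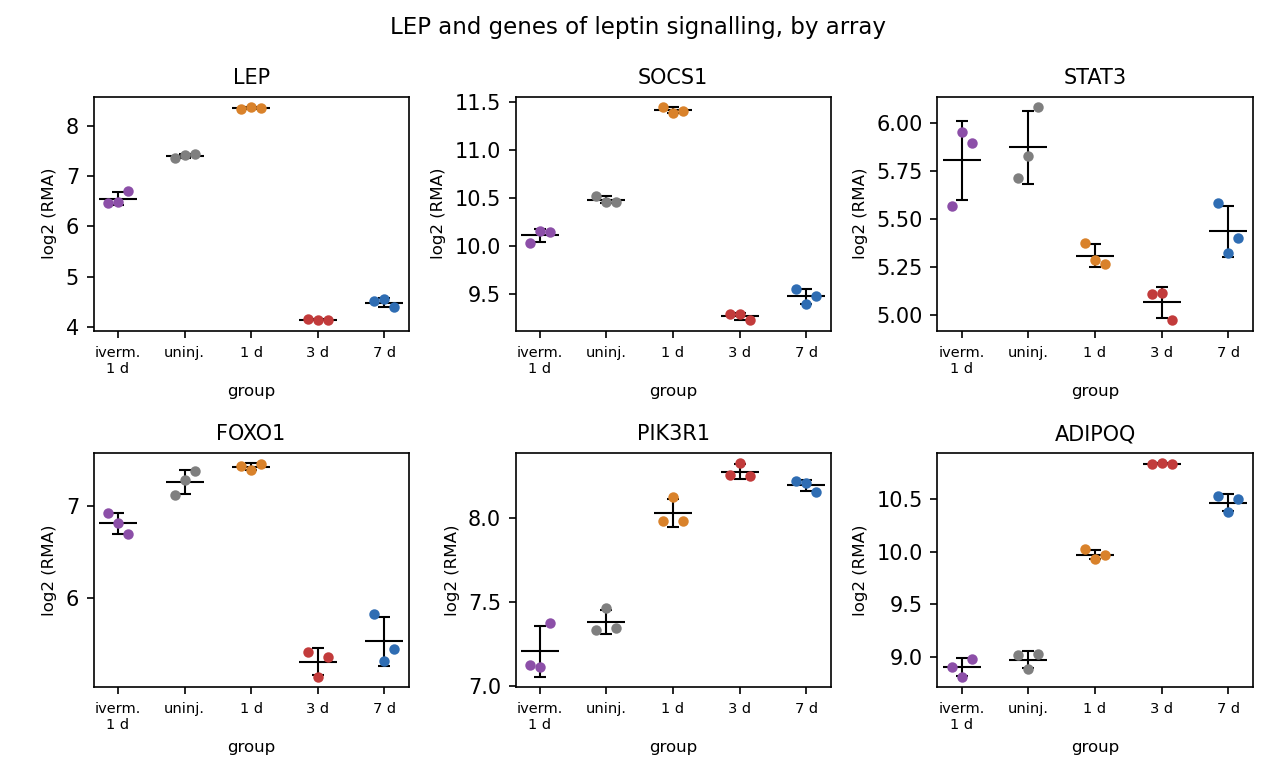
Expression (log2, RMA; vertical axes, each with its own scale) of LEP, SOCS1, STAT3, FOXO1, PIK3R1 and ADIPOQ on each array by group (points; bars are mean and SD, n = 3 arrays). SOCS1 is highest at 1 day (11.38 to 11.44) and lowest at 3 days (9.23 to 9.29), as LEP is, while ADIPOQ is highest at 3 days.

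Of 18 inhibitors of leptin signalling 13 were measured. At 1 day 2 rose and 4 fell, at 3 days 3 rose and 6 fell, and at 7 days 2 rose and 8 fell against uninjured tissue. In ivermectin against 1 day 1 rose and 2 fell, and in ivermectin against uninjured tissue 3 fell. The median difference of the list was -0.07 at 1 day, -0.20 at 3 days and -0.34 at 7 days. Over all genes 29.8% were called lower at 1 day, 32.5% at 3 days and 29.2% at 7 days. Those called higher made up 25.8%, 29.4% and 31.1%. In ivermectin against 1 day 57.5% of all genes were called, 30.9% higher and 26.6% lower. The shares in ivermectin against uninjured tissue were 3.06% higher and 4.33% lower.

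SOCS1, which binds JAK kinases and blocks them, followed LEP in direction in every comparison with uninjured tissue and in ivermectin against 1 day. It read 10.03, 10.15 and 10.15 on ivermectin arrays, 10.52, 10.46 and 10.46 on uninjured arrays, 11.44, 11.38 and 11.40 at 1 day, 9.29, 9.29 and 9.23 at 3 days, and 9.56, 9.40 and 9.49 at 7 days. No 2 groups overlapped, and the order of the groups was that of LEP. It rose by 0.93 ± 0.05 at 1 day (limma adjusted p 1.02e-09) and fell by 1.21 at 3 days (limma adjusted p 2.72e-11) and by 1.00 at 7 days (limma adjusted p 2.61e-10). It fell by 1.30 in ivermectin against 1 day (limma adjusted p 1.95e-11) and by 0.37 in ivermectin against uninjured tissue (limma adjusted p 0.000431). The span of its group means was smaller than that of LEP.

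SOCS3, the classical feedback inhibitor of the leptin receptor, and PTPN1, the phosphatase that removes phosphate from JAK2, moved little. SOCS3 read 4.53, 4.29 and 4.53 on ivermectin arrays, 4.64, 4.54 and 4.24 on uninjured arrays, 4.74, 4.74 and 4.60 at 1 day, 4.96, 4.72 and 4.58 at 3 days, and 4.59, 4.63 and 4.73 at 7 days. These levels were near the lower quartile of the arrays, so a change in SOCS3 could have been missed. SOCS3 was called higher only at 3 days, by 0.28 ± 0.11 (limma adjusted p 0.0377), where the 3 day and uninjured arrays overlapped. That call was lost without the uninjured array of replicate 3 (0.16), without the 3 day array of replicate 1 (0.18) or of replicate 2 (0.30), and in a fit of the compared groups alone. PTPN1 was called lower only at 7 days, by a difference of -0.34 ± 0.13 (limma adjusted p 0.0301), again with overlapping arrays, and its call was lost with median centring or array weights (-0.30 each), without the uninjured array of replicate 1 (-0.26) or 2 (-0.27), and without the 7 day array of replicate 1 (-0.32) or 2 (-0.30). At 1 day, when LEP was highest, SOCS3 differed from uninjured tissue by 0.22 and PTPN1 by -0.28, neither called. A call at 1 day appeared for SOCS3 without the uninjured array of replicate 1 (0.31) and for PTPN1 without that of replicate 3 (-0.42). In ivermectin against 1 day SOCS3 differed by -0.25 (limma adjusted p 0.068) and was called after cyclic loess (-0.26), with median centring (-0.29) and with the compared groups alone.

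Among the other inhibitors PIAS4, a SUMO ligase that binds STAT proteins, fell by 0.64 at 1 day, 0.81 ± 0.14 at 3 days (limma adjusted p 0.000101) and 0.65 at 7 days, and rose by 0.78 in ivermectin against 1 day (limma adjusted p 0.000159). Its relative PIAS2 rose by 0.36 at 1 day, 0.26 at 3 days and 0.68 at 7 days and fell by 0.63 in ivermectin against 1 day (limma adjusted p 1.49e-05). GRB10, an adaptor that binds activated receptors, fell by 0.38 at 3 days (limma adjusted p 0.00587) and 0.37 at 7 days. PTPRE, a receptor-type phosphatase, fell by 0.30, 0.32 and 0.37 at 1, 3 and 7 days. Its levels of 3.02 to 3.51 lay below the lower quartile of the arrays. PIAS4 lay near that quartile at 1, 3 and 7 days, with group means of 4.12 to 4.29.

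**Figure D3:**
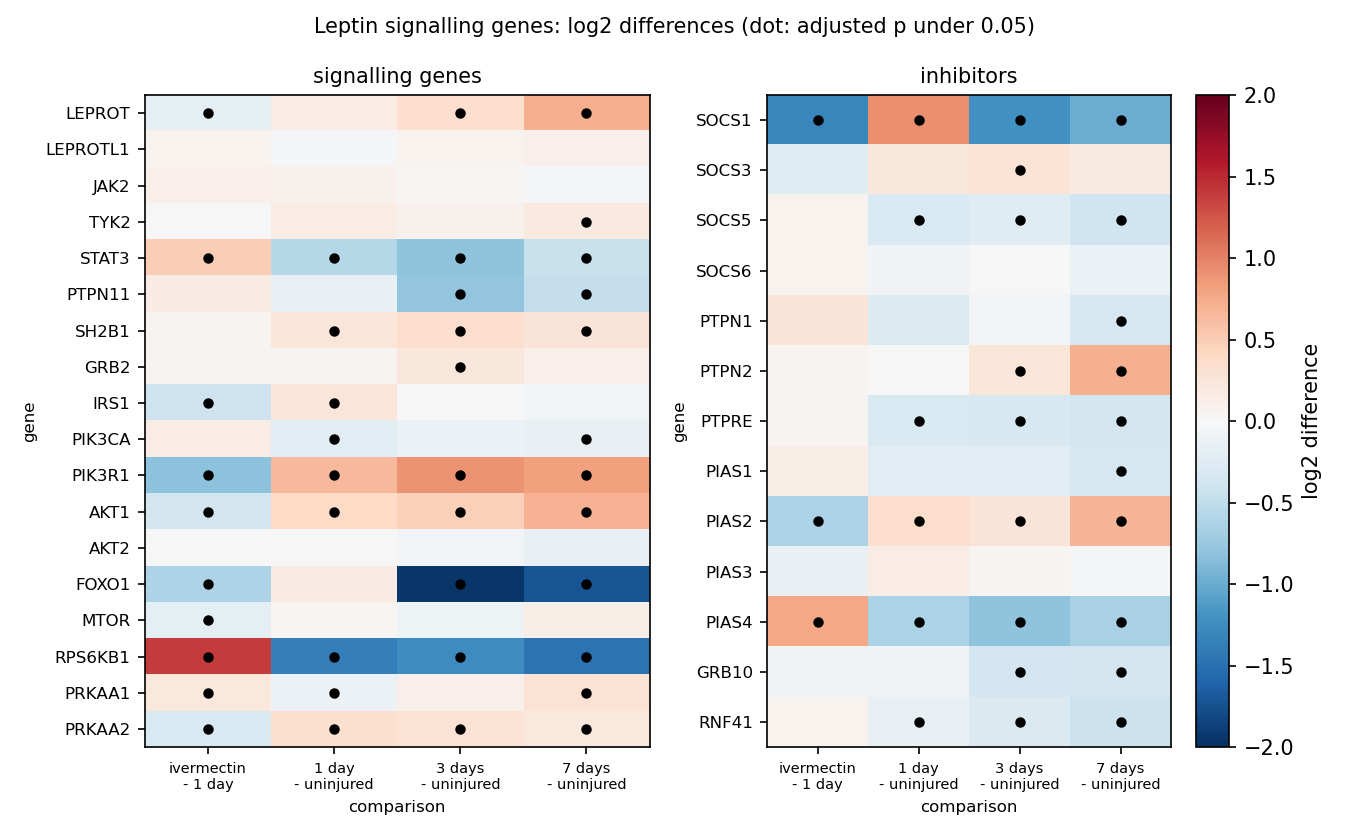
Log2 differences (colour, tested minus reference as written under each column) of the measured members of the signalling list (left, 18 genes) and the inhibitor list (right, 13 genes). Dots mark a limma adjusted p under 0.05. RPS6KB1 is lower at all 3 times and higher in ivermectin against 1 day, while SOCS1 is higher at 1 day and lower at 3 and 7 days.

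Of the genes that STAT3 is known to induce, more rose than fell at 1 day and most fell at 3 and 7 days, while STAT3 itself was lower at all 3 times. Of 19 such genes 13 were measured. At 1 day 7 rose and 4 fell against uninjured tissue, at 3 days 2 rose and 10 fell, and at 7 days 1 rose and 10 fell. The median difference was -0.87 at 3 days and -1.07 at 7 days. In ivermectin against 1 day 3 rose and 8 fell, with a median of -0.59, and in ivermectin against uninjured tissue none rose and 6 fell. Against uninjured tissue the shares of all genes called higher were 25.8%, 29.4% and 31.1% for the 3 times in order. Those called lower made up 29.8%, 32.5% and 29.2%. Over all genes 30.9% were called higher and 26.6% lower in ivermectin against 1 day. In ivermectin against uninjured tissue the shares were 3.06% and 4.33%. The list also holds immediate early genes such as FOS and JUNB, which many other signals induce.

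FOS, a subunit of the AP-1 transcription factor, read 6.38, 6.46 and 6.31 on ivermectin arrays, 7.35, 7.38 and 7.48 on uninjured arrays, 10.06, 10.09 and 10.03 at 1 day, 4.97, 4.95 and 5.08 at 3 days, and 6.14, 5.91 and 5.82 at 7 days. TIMP1, an inhibitor of matrix metalloproteinases, rose by 1.04 ± 0.04 at 1 day (limma adjusted p 2.01e-11) and fell by 1.07 at 3 days and by 1.76 at 7 days. PIM3, a serine/threonine kinase, rose by 0.55 at 1 day and fell by 0.87 at 3 days and by 0.86 at 7 days. FOS, TIMP1 and PIM3 were each highest at 1 day with all 3 arrays above every other group, as LEP was. TIMP1 fell by 1.87 in ivermectin against 1 day (limma adjusted p 2.35e-14) and PIM3 by 1.05 (limma adjusted p 1.32e-10). IRF1, an interferon-responsive transcription factor, was not called at 1 day (-0.01) and fell by 1.32 at 3 days and 1.85 at 7 days. MYC went another way at 1 day, where it fell by 1.04 ± 0.07 (limma adjusted p 6.77e-09), and it rose by 0.91 in ivermectin against 1 day.

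Of the genes through which leptin acts in the mammalian hypothalamus, more rose than fell after injury. Of 18 listed, 12 were measured, and 7 rose and none fell at 1 day, 7 rose and 2 fell at 3 days, and 6 rose and 2 fell at 7 days. Over all genes 25.8% were called higher at 1 day, 29.4% at 3 days and 31.1% at 7 days. Those called lower made up 29.8%, 32.5% and 29.2%. In ivermectin against 1 day 1 rose and 7 fell, and in ivermectin against uninjured tissue none rose and 1 fell. The shares of all genes called higher and lower were 30.9% and 26.6% in the first of these comparisons, and 3.06% and 4.33% in the second. PMCH, the precursor of melanin-concentrating hormone, read 5.09, 5.04 and 5.12 on ivermectin arrays, 4.88, 4.82 and 4.73 on uninjured arrays, 8.75, 8.61 and 8.49 at 1 day, 5.12, 5.04 and 4.93 at 3 days, and 5.72, 5.96 and 6.26 at 7 days. Like LEP it was highest at 1 day, by 3.80 ± 0.11 over uninjured tissue (limma adjusted p 4.46e-13), but it did not fall below the uninjured level at 3 days (0.22, limma adjusted p 0.0899).

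BDNF, a neurotrophin, had the signs of LEP in the comparisons given here. It rose by 0.70 ± 0.08 at 1 day (limma adjusted p 5.09e-06), fell by 0.64 at 3 days (limma adjusted p 9.23e-06) and by 0.45 at 7 days, and fell by 1.13 in ivermectin against 1 day (limma adjusted p 2.27e-08) and by 0.43 in ivermectin against uninjured tissue (limma adjusted p 0.00557). NPY, the appetite-stimulating neuropeptide Y, rose by 1.51, 1.33 and 1.11 at 1, 3 and 7 days and fell by 1.88 in ivermectin against 1 day, but at 7 days a second NPY probe set was called in the opposite direction. NTS, neurotensin, rose by 0.80, 1.96 ± 0.13 and 1.52 at 1, 3 and 7 days, and its uninjured level of 2.93 to 3.10 lay below the lower quartile. The prohormone-processing enzymes CPE and PCSK2 rose by 0.94 and 0.71 at 1 day and by 0.92 and 0.81 at 3 days.

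In mammals LEP is transcribed in fat cells under factors such as CEBPA, and in placenta and hypoxic cells under hypoxia-inducible factors. The list used here holds factors that bind the LEP promoter or drive fat cell genes, so a member need not activate LEP. Of 16 listed transcription factors 8 were measured, and CEBPA, CEBPB and CEBPD had no named probe set. At 1 day 1 rose and 2 fell, at 3 days 1 rose, and at 7 days 1 rose and 3 fell. The shares over all genes were 25.8%, 29.4% and 31.1% called higher and 29.8%, 32.5% and 29.2% called lower. EPAS1, a hypoxia-inducible factor, rose by 0.59 at 1 day, 0.73 ± 0.06 at 3 days (limma adjusted p 4.84e-08) and 0.56 at 7 days, and fell by 0.53 in ivermectin against 1 day. PPARG, the master regulator of fat cells, fell by 0.56 at 1 day (limma adjusted p 1.06e-06), differed by 0.01 at 3 days (limma adjusted p 0.843) and fell by 0.33 at 7 days. It rose by 0.71 ± 0.06 in ivermectin against 1 day (limma adjusted p 7.76e-08), and ARNT, the partner of hypoxia-inducible factors, rose by 0.32 (limma adjusted p 0.0221). ARNT lay near the lower quartile of the arrays, with group means of 4.35 to 4.67. The differences of LEP and PPARG thus had opposite signs at 1 day and in ivermectin against 1 day, and the same sign at 7 days. LEP and EPAS1 had the same sign at 1 day and in ivermectin against 1 day, and differed in sign at 3 and 7 days.

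Of 24 other secreted metabolic hormones and adipokines 10 were measured. At 1 day 5 rose and 4 fell, at 3 days 5 rose and 5 fell, and at 7 days 6 rose and 3 fell against uninjured tissue. Of all genes 25.8%, 29.4% and 31.1% were called higher at 1, 3 and 7 days, and 29.8%, 32.5% and 29.2% lower. ADIPOQ, adiponectin, which like leptin is made by fat cells in mammals, read 8.90, 8.81 and 8.98 on ivermectin arrays, 9.01, 8.88 and 9.02 on uninjured arrays, 10.02, 9.93 and 9.97 at 1 day, 10.84, 10.84 and 10.84 at 3 days, and 10.53, 10.37 and 10.50 at 7 days. ADIPOQ rose by 1.00 ± 0.06 at 1 day and was highest at 3 days, by 1.87 ± 0.06 over uninjured tissue (limma adjusted p 7.98e-13), where LEP was lowest. It fell by 1.07 in ivermectin against 1 day (limma adjusted p 6.83e-10), and in ivermectin against uninjured tissue it differed by -0.07 (limma adjusted p 0.587). IGFBP3, an insulin-like growth factor carrier, rose by 1.32 at 1 day, fell by 0.46 at 3 days and rose by 0.44 at 7 days. IGFBP2, another carrier, fell by 1.43 at 1 day and by 0.58 at 3 days, and rose by 1.48 in ivermectin against 1 day. AGT, the angiotensin precursor, rose by 0.70 at 1 day and 0.84 at 3 days and fell by 0.77 in ivermectin against 1 day, and IGFBP5 rose by 0.77 at 3 days.

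Of 29 hypoxia target genes 18 were measured. At 1 day 10 rose and 2 fell, at 3 days 11 rose and 3 fell, at 7 days 10 rose and 3 fell, and in ivermectin against 1 day 2 rose and 10 fell. The shares of all genes called higher in these 4 comparisons were 25.8%, 29.4%, 31.1% and 30.9%. The shares called lower were 29.8%, 32.5%, 29.2% and 26.6%. SLC2A1 read 8.36, 8.17 and 8.18 on ivermectin arrays, 9.33, 9.42 and 9.41 on uninjured arrays, 11.73, 11.87 and 11.78 at 1 day, 7.59, 7.56 and 7.74 at 3 days, and 7.57, 7.48 and 7.54 at 7 days. Its arrays were highest at 1 day and lowest at 3 and 7 days, with the ivermectin arrays between the 3 day and uninjured ones, so its differences from uninjured tissue and between ivermectin and 1 day had the signs of those of LEP. It rose by 2.40 ± 0.06 at 1 day (limma adjusted p 3.36e-13) and fell by 1.76 at 3 days (limma adjusted p 4.26e-12). DDIT4, a stress-induced inhibitor of mTOR signalling, rose by 2.79 at 1 day, fell by 0.31 at 3 days and fell by 4.12 in ivermectin against 1 day. At 7 days DDIT4 averaged 7.48, beside 7.56 in uninjured tissue, with overlapping arrays. HMOX1, the haem-degrading enzyme haem oxygenase, rose by 1.38 at 1 day and fell by 1.92 in ivermectin against 1 day. Unlike LEP, HMOX1 was not below its uninjured mean of 10.57 at the later times, with means of 10.61 at 3 days and 11.69 at 7 days.

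Other hypoxia targets also had a time course unlike that of LEP. NDRG1, a stress-response gene, rose by 3.00 ± 0.08 at 3 days (limma adjusted p 1.4e-13) and by 2.19 at 7 days, and at 1 day its 2 probe sets were called in opposite directions. BNIP3, a mitochondrial protein of mitophagy, was not called at 1 day (-0.11, limma adjusted p 0.131) and rose by 1.10 at 3 days and 1.56 at 7 days. ENO1, the glycolytic enzyme enolase, rose by 0.48, 0.85 and 0.77 at 1, 3 and 7 days. MXI1, a MAX-binding repressor, fell by 0.52, 1.31 and 1.09 at the same times.

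Markers of other tissues moved with these groups. Of 16 adipocyte markers 7 had a named probe set, and PLIN1, PLIN4, FABP4, CIDEC and LIPE had none. Their mean level was 6.03 to 6.08 on ivermectin arrays, 6.04 to 6.10 on uninjured arrays, 6.26 to 6.38 at 1 day, 6.93 to 7.01 at 3 days and 6.64 to 6.66 at 7 days, highest where LEP was lowest. At 3 days 5 of the 7 rose and 1 fell, with GPD1, which makes glycerol phosphate and is also abundant in muscle, at 2.35 and DGAT2, which makes triglycerides, at 2.30. GPD1, DGAT2 and ADIPOQ rose most, while the median difference of the list was 0.37 and the lowest -0.70. In that comparison 29.4% of all genes were called higher and 32.5% lower. Of 26 epidermal markers 18 were measured, and 1 rose and 10 fell at 1 day, and none rose and 15 fell at both 3 and 7 days. The shares of all genes called lower were 29.8%, 32.5% and 29.2% at 1, 3 and 7 days. The mean level of the epidermal markers was 9.29 to 9.30 on ivermectin arrays, 9.37 to 9.39 on uninjured arrays, 8.88 to 8.93 at 1 day, 8.33 to 8.36 at 3 days and 8.19 to 8.30 at 7 days. It was therefore lower at 1 day than in uninjured tissue, where LEP was higher, and lower at 3 and 7 days, where LEP was lower too.

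Of 20 skeletal muscle markers 18 were measured, and all 18 rose at 1 day, 17 rose and 1 fell at 3 days, and 17 rose at 7 days, while in ivermectin against 1 day 17 fell. Of all genes 25.8%, 29.4% and 31.1% were called higher at 1, 3 and 7 days, and 26.6% lower in ivermectin against 1 day. The mean level of the muscle markers was 9.93 to 9.97 on ivermectin arrays, 9.95 to 10.01 on uninjured arrays, 11.30 to 11.32 at 1 day, 11.59 to 11.60 at 3 days and 11.21 to 11.26 at 7 days. Macrophage and other white cell markers, of which 11 of 16 were measured, averaged 7.28 to 7.34 on ivermectin arrays, 7.32 to 7.35 on uninjured arrays, 7.15 to 7.19 at 1 day, 7.09 to 7.14 at 3 days and 7.66 to 7.72 at 7 days. All 15 cartilage and connective tissue markers were measured, with a mean of 9.31 to 9.33 on ivermectin arrays, 9.40 to 9.46 on uninjured arrays, 9.55 to 9.59 at 1 day, 9.06 to 9.07 at 3 days and 9.27 to 9.33 at 7 days. Poly-A control RNAs, added before labelling and read on 24 probe sets, also differed between groups, with means of 7.43 ± 0.0474 on ivermectin arrays, 7.54 ± 0.0286 on uninjured arrays, 8.08 ± 0.0441 at 1 day, 8.33 ± 0.0955 at 3 days and 7.94 ± 0.140 at 7 days (SD, n = 3). The part of these markers and controls in the LEP differences was not tested.

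The genes most like LEP were ranked by Pearson's r with LEP over the 15 arrays, which fall into 5 groups, so r mainly follows the group means and is given without a p. The median r over 8638 other genes was -0.0631, 146 genes had r above 0.9 and 53 had r below -0.9. The highest were UGCG, which makes glucosylceramide (0.997), FBLIM1, a focal adhesion protein (0.996), TIPARP, a mono-ADP-ribosyltransferase (0.995), SGK1, a kinase induced by serum and glucocorticoids (0.995), GPR84, a receptor for medium-chain fatty acids (0.995), SORBS3, an adhesion adaptor (0.994), JUNB, an AP-1 subunit (0.993), and ODC1, the first enzyme of polyamine synthesis (0.992). The next gene had r of 0.991, so the border of this list is not sharp.

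UGCG read 10.24, 10.17 and 10.14 on ivermectin arrays, 10.64, 10.67 and 10.69 on uninjured arrays, 10.96, 11.02 and 11.05 at 1 day, 8.96, 8.98 and 8.98 at 3 days, and 9.11, 9.11 and 9.03 at 7 days. GPR84 read 5.98, 6.06 and 6.13 on ivermectin arrays, 6.33, 6.38 and 6.43 on uninjured arrays, 7.22, 7.17 and 7.11 at 1 day, 4.38, 4.26 and 4.19 at 3 days, and 4.65, 4.32 and 4.46 at 7 days. Both had the order of groups seen for LEP, and in GPR84, where the 3 and 7 day arrays overlapped, the last step was within the spread. The range of group means was 1.30 in SORBS3 to 2.89 in GPR84, so each of the 8 genes moved less than LEP, at 4.20. At 1 day against uninjured tissue their differences were 0.26 in SGK1 to 0.79 in ODC1, at 3 days -0.99 in SORBS3 to -2.10 in GPR84, and in ivermectin against 1 day -0.59 in SORBS3 to -1.10 in GPR84.

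**Figure D4:**
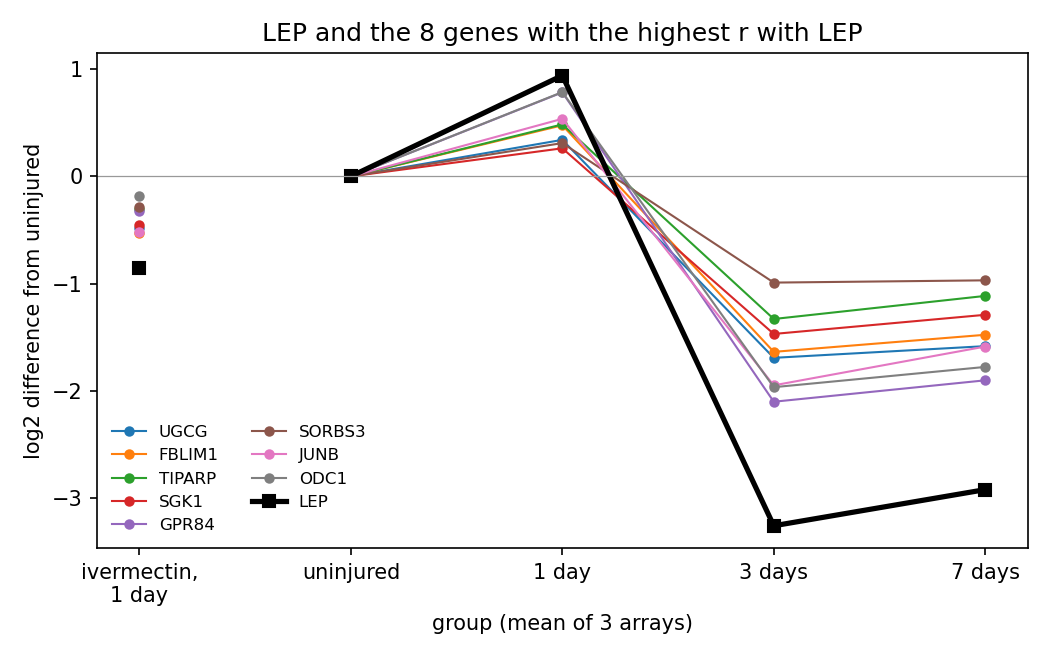
Group means of LEP (black) and the 8 genes with the highest r with LEP (colours), each as log2 difference from its own uninjured mean (vertical axis), by group (horizontal axis). Lines join the time course from uninjured tissue to 7 days, and the ivermectin means stand apart at the left. All 9 are above 0 at 1 day, below 0 at 3 and 7 days and below 0 with ivermectin, and LEP has the widest span, from 0.94 to -3.26.

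The likeness depended on the groups used. With the 1 day arrays left out 3 of the 8 genes remained among the top 8, and with the 7 day arrays left out 4 remained. Measured by the root mean square of the difference between centred profiles, which counts the size of the change as well as its shape, RHBDL2 (0.391), GFPT2, ETS2, DUSP5, AREG, NFKBIA, GPR84 and ODC1 were closest, and 2 of these were among the 8 above. The lowest r belonged to RMI1, a genome-stability factor (-0.982), HPGD, which degrades prostaglandins (-0.974), HAAO, an enzyme of tryptophan breakdown (-0.958), and RAB18, a small GTPase (-0.957). HAAO was 1.89 higher at 3 days than in uninjured tissue, with arrays at 5.90, 6.09 and 6.21 at 3 days against 3.97, 4.24 and 4.34 on uninjured arrays, and its uninjured level was near the lower quartile.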

How the data were processed

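Total RNA of axolotl spinal cord was hybridized to 15 arrays, after Trizol extraction and biotin labelling with a 3' IVT kit, per the labels' protocols. The deposited values are log2 expression per probe set, made by the authors in Affymetrix Expression Console with RMA, a method that corrects background, equalizes distributions across arrays and combines probes, per the submitters' processing notes. Whether all arrays were normalized together is not given in the sources used here. The values were used as deposited. Gene symbols came from the platform annotation, and a gene with several probe sets (1740 genes) was read from the one with the highest mean level. The 45 Affymetrix control probe sets were left out of the tests.

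All arrays entered 1 limma fit (version 3.58.1 in R 4.3.3, functions lmFit and eBayes) in which every group has its own mean, leaving 10 residual degrees of freedom beside 4.26 from the prior. The 7 comparisons were contrasts of that fit, tested on both sides, with p-values adjusted over 20035 probe sets by Benjamini-Hochberg and called under 0.05. Spread between arrays of a group, each of pooled tissue, is what these p-values measure, and precision is limited by having 3 arrays a group. The code was tested on simulated data. No pair of arrays held identical values (0 pairs).

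The gene, the lists and the comparisons were chosen with earlier results of these data known. Named genes are LEP, LEPROT, JAK2, STAT3, SOCS3, PTPN1 and IL6ST, up to 4 called members of each list with the largest difference at 3 days against uninjured tissue and in ivermectin against 1 day, the 8 genes with the highest and the 4 with the lowest r with LEP, and the neighbours of LEP in rank at 3 days against uninjured tissue. Other genes named were chosen after their values were seen. Replicate numbers did not pair the arrays: over 30 pairs of same-numbered arrays the median correlation of deviations from the group means was -0.0062, with 1 pair over 0.1, so they were not used as a block. Alternatives were the replicate block, the compared groups alone, an intensity trend, array weights, cyclic loess, median centring, the lowest 25% of probe sets left out, a log2 difference of at least 1, and each array left out. Plots were made in matplotlib 3.10.9 (Python 3.11.15).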

Additional observations from a re-analysis of the deposited data

Results flagged for a closer look

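Every 3 day array lay below and every 1 day array above the uninjured arrays for LEP (3 days minus 1 day, -4.20). The ivermectin arrays likewise lay below and the 1 day arrays above the uninjured ones (ivermectin minus 1 day, -1.80). These LEP differences were not tested.

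Named genes of the lists above, tissue markers aside, were checked for opposite signs of change from uninjured tissue in the compared groups. These lists also cover genes outside leptin signalling, such as hypoxia targets and other hormones. By the limma test of the difference itself, those found fell into 2 sets. Genes named only for their likeness to LEP or their rank beside it were not part of this check. For 3 days minus 1 day the differences were -5.06 for FOS, -4.16 for SLC2A1, -3.09 for DDIT4, -2.49 for JUNB, -2.14 for SOCS1, -2.11 for TIMP1, -1.78 for IGFBP3, -1.42 for PIM3 and -1.34 for BDNF. All 9 were higher at 1 day and lower at 3 days than in uninjured tissue. For ivermectin minus 1 day the differences were -4.12 for DDIT4, -3.68 for FOS, -3.56 for SLC2A1, -1.92 for HMOX1, -1.87 for TIMP1, -1.60 for IGFBP3, -1.30 for SOCS1, -1.13 for BDNF, -1.06 for JUNB, -1.05 for PIM3 and -0.63 for ENO1. All 11 were lower with ivermectin and higher at 1 day than in uninjured tissue. Most checked genes had been named for large differences at 3 days against uninjured tissue or in ivermectin against 1 day. The share of all genes with such opposite signs was not counted, so the 2 sets say nothing particular about the lists.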

How the results depend on the processing

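Under cyclic loess, median centring and the omission of any 1 array, every LEP difference kept its sign. The moves that exceeded the larger SD of the compared groups were at 1 day against uninjured tissue with cyclic loess (1.00, against 0.94), at 3 days against uninjured tissue with median centring (-3.19, against -3.26), and at 3 days against 1 day with cyclic loess (-4.22) and median centring (-4.17, against -4.20). None of the 42 moves with an array left out exceeded it, but this was fixed in advance. With 3 arrays per group, leaving 1 out cannot move a group mean by more than its SD. It could not change a sign either, since the LEP readings of different groups never overlapped. The omission of an array therefore says nothing about the stability of these differences. With equal groups a replicate block cannot alter a difference of group means, so its value at 3 days against uninjured tissue (-3.26) says nothing about stability. Averaging several probe sets gave no value, since LEP has 1.

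Requiring a log2 difference of at least 1 left 1426 probe sets called at 1 day, 2182 at 3 days and 2104 at 7 days against uninjured tissue, 1563 in ivermectin against 1 day, 32 in ivermectin against uninjured tissue, 788 at 3 days against 1 day and 400 at 7 days against 3 days. The 9 lists other than tissue markers, which include hypoxia targets and other hormones, held 96 measured genes. Of these the stricter rule left 12, 17, 22, 15, 3, 17 and 1 in the same order, against 57, 66, 69, 55, 19, 53 and 50 without it. Of all genes it left 5.83%, 9.58%, 9.79%, 6.59%, 0.127%, 3.53% and 1.19%. Of the signalling list it left 1, 2, 2 and 1 in the first 4 comparisons, and of the inhibitors 0, 1, 0 and 1. The stricter rule itself lowers these counts. In ivermectin against 1 day 5 inhibitors were called with median centring and 5 with the compared groups alone, against 3. In ivermectin against uninjured tissue 861 probe sets were called with the compared groups alone, against 1393, and 904 to 1145 with an array left out, lowest without uninjured replicate 2 (904) and ivermectin replicate 2 (916). Of the 8 genes most like LEP, 2 remained by root mean square difference, 3 without the 1 day group and 4 without the 7 day group. The causes were not tested. At a log2 difference of at least 1 no call of LEPROT, STAT3, SOCS3 or PTPN1 was kept. The LEPROT call at 3 days against 1 day (0.19) was lost without 1 day replicate 1 (0.14) or 2 (0.20) or 3 day replicate 1 (0.17) or 3 (0.19), and PTPN1 was called lower at 7 days against 3 days with the compared groups alone (-0.28), as was STAT3 at 3 days against 1 day (-0.24). STAT3 at 7 days against 3 days (0.37) lost its call without 7 day replicate 1 (0.30). Levels near the lower quartile limit LEP at 3 and 7 days, JAK2 and SOCS3.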

Other observations

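Genes next to LEP in the axolotl genome, looked up by gene order in the RefSeq assembly UKY_AmexF1_1 after the values of LEP were known, are given here with their differences. On the one side the nearest named coding genes are RBM28, PRRT4, TNPO3 and IRF5, and on the other SND1, LRRC4, PAX4 and FSCN3, of which PRRT4, PAX4 and FSCN3 had no named probe set. RBM28, a nuclear RNA-binding protein, differed from uninjured tissue by -0.66 at 1 day, -0.59 at 3 days and -0.46 at 7 days, and by 0.66 in ivermectin against 1 day. TNPO3, a nuclear import receptor, differed by -0.65, -0.43 and -0.58 at the same times, and by 0.63 in ivermectin against 1 day. SND1, a nuclease of RNA processing, differed by -0.44 at 1 day and -0.33 at 3 days, and by 0.32 in ivermectin against 1 day, and at 7 days it was not called (-0.01). IRF5, an interferon regulatory factor, differed by -0.20 at 1 day and -0.36 at 3 days. Apart from SND1 at 7 days, the differences given for these 4 genes were called by limma (adjusted p under 0.05). In IRF5 the differences at 7 days (-0.13) and in ivermectin against 1 day (0.11) were not called. LRRC4, a synaptic adhesion protein, differed by 0.32 at 1 day (limma adjusted p 0.00538), by 0.08 at 3 days (limma adjusted p 0.426), by 0.06 at 7 days (limma adjusted p 0.58), by -0.34 in ivermectin against 1 day (limma adjusted p 0.0033) and by -0.24 at 3 days against 1 day (limma adjusted p 0.0388), at levels below or near the lower quartile of the arrays.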
